A study of Homo sapiens with 10 samples.

Results

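The ETS transcription factors described here are 10 genes, ETS1, ETS2, ERG, FLI1, ETV1, ETV4, ETV5, ELF3, EHF and SPDEF, of the 20033 protein-coding genes in GENCODE release 44. They were taken by name, not by their signal, although earlier results of these data were known when they were chosen. Every H3K27ac and H3K18ac peak over each gene body and 50 kb to each side was collected, which gave 454 peaks in all. Of these, 57 were among the 68034 H3K27ac peaks of C4-2B cells and 61 among the 72971 of C4-2BER cells. For H3K18ac, 171 of 198451 peaks in C4-2B and 165 of 197948 in C4-2BER lay in these windows. Each peak carries a fold enrichment, the ratio of ChIP signal to background that the peak caller assigned to it as a mean over the whole peak, so that a wider peak can have a lower value.

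The comparison asks how acetylated chromatin differs between prostate adenocarcinoma cells and neuroendocrine-like cells. C4-2B belongs to the LNCaP lineage and is a prostate adenocarcinoma line that grows without testicular androgen. C4-2BER was derived from it by long exposure to the antiandrogen enzalutamide, was kept in the drug, and is labelled as neuroendocrine-like. Both are single cell lines, so line and drug cannot be told apart. Each mark was profiled in 2 libraries per line, with 1 input library per line, and the duplicates were merged before peaks were called. Every value below is therefore 1 number per mark and line, with no replicate error and no test. Depth is unknown, since a peak list carries no read counts.

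The labels were set against marker genes. The 5 luminal markers KLK3, KLK2, TMPRSS2, FOLH1 and HOXB13 all had an H3K27ac promoter peak in both lines. Their summed promoter fold enrichment was 97.1 in C4-2B, where HOXB13, a prostate homeobox factor, was the highest (23.5), and 78.5 in C4-2BER, where TMPRSS2, a prostate serine protease, was (20.03). KLK2 and KLK3, neighbours on chromosome 19, had the same value (20.3 and 13.8), which enters the sum for each. The median log2 ratio of C4-2BER to C4-2B over the 5 was -0.25, and 0.25 after the rescaling described below. Of the 5 neuroendocrine markers ENO2, SYP, CHGA, INSM1 and NCAM1, 2 had an H3K27ac promoter peak in each line, and the sums were 12.2 and 19.9. ENO2, a neuronal enolase, had a fold enrichment of 4.00 in C4-2B and 14.3 in C4-2BER, and SYP, the vesicle protein synaptophysin, had 8.16 and 5.67. CHGA, INSM1 and NCAM1 had no peak in either line. For H3K18ac the sums were 41.3 and 38.01 for the luminal markers, highest at FOLH1 (9.41) in C4-2B and at TMPRSS2 (9.08) in C4-2BER. They were 18.4 and 14.97 for the neuroendocrine markers, highest at CHGA (4.31) in C4-2B and at ENO2 (4.33) in C4-2BER. By these promoters, luminal genes were acetylated in both lines, and the defining neuroendocrine genes CHGA and INSM1 had no H3K27ac peak in the line labelled neuroendocrine-like.

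ETS proteins share a winged helix-turn-helix domain that binds DNA around a GGAA core. ELF3, EHF and SPDEF belong to the epithelial branches of the family and are expressed in glandular tissue such as the prostate. ETS1 and ETS2 are founding members that respond to Ras and ERK signalling, and ETV1, ETV4 and ETV5 form the PEA3 group, also tied to ERK signalling. ERG and FLI1 belong to endothelial and blood lineages and are normally silent in prostate epithelium. ERG, ETV1, ETV4 and, less often, ETV5 and FLI1 are activated by gene fusions in prostate cancer, and in LNCaP cells ETV1 is rearranged into the MIPOL1 locus. H3K27ac and H3K18ac, both laid down by the acetyltransferases p300 and CBP, mark active promoters and enhancers.

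The 300-base promoter windows of 4 genes are shown because they carry the contrast that the values below turn on. They run from 250 bases before to 50 bases after the RefSeq gene start on GRCh38.p14, 5′ to 3′ on the gene's strand. The ETS2 window (chr21:38804933-38805232, + strand) and the EHF window (chr11:34624007-34624306, + strand) overlapped peaks of both marks in both lines. The ERG window (chr21:38660618-38660917, - strand) and the ETV1 window (chr7:13990653-13990952, - strand) overlapped H3K18ac peaks only. Capitals mark matches on either strand to 5 motifs, CCGGAAGT (ETS), TGTTTAC (forkhead), CAGCTG (E-box), GGGCGG (GC box) and TGACTCA (AP-1).
ETS2: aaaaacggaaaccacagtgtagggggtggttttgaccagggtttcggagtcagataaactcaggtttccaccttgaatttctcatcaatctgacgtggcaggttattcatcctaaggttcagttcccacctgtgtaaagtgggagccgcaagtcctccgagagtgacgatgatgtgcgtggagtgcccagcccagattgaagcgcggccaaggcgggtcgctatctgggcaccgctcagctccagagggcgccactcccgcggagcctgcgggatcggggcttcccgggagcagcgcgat
EHF: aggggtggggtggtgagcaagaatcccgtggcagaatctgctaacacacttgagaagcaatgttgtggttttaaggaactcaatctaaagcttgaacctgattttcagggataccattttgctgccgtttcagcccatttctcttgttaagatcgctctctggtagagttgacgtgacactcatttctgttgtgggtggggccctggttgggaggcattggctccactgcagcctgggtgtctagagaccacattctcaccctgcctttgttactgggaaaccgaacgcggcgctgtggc
ERG: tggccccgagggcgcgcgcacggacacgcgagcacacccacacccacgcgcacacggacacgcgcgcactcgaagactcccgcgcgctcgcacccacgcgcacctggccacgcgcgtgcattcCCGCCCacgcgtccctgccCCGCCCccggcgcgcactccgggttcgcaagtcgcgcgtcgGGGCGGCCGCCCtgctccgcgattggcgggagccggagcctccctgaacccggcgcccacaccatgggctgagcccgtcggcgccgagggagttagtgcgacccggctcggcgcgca
ETV1: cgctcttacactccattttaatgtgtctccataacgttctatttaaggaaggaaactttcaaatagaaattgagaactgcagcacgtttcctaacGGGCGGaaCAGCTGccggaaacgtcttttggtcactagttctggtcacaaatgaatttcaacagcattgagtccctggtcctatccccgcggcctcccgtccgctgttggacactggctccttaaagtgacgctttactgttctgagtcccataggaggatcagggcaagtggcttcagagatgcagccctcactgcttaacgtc
The RefSeq table held the windows of 6 members, of which ETS2, EHF, ELF3 and SPDEF had no match to any of the 5 motifs. The ERG window had a GC content of 77.0% and 4 GC box matches, whereas ETV1 had 1 match each to the GC box and the E-box. Among 15345 protein-coding promoters of the same length, 59.2% held the GC box, 17.7% the E-box, 6.32% the ETS motif, 3.68% the AP-1 motif and 2.63% the forkhead motif. No ETS motif matched in any of the 6 windows, and this says only that those letters are not in these bases.

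At the promoters, the ETS genes fell into 3 levels of H3K27ac. A promoter here is 2000 bp upstream to 500 bp downstream of every annotated TSS, and its value is that of the strongest peak touching those windows. ETS2 and SPDEF were the highest in C4-2B, ELF3, EHF and ETS1 were intermediate, and ETV5 and ETV4 were low. ERG, FLI1 and ETV1 had no H3K27ac promoter peak in either line. These levels hold only among the 10 genes. Over all protein-coding promoters with a peak, the median was 18.2 in C4-2B and 12.5 in C4-2BER, beside 11.6 and 10.3 over the ETS promoters with a peak. In C4-2BER the order among the high promoters differed, with SPDEF first, followed by EHF, ELF3 and ETS2. With 1 list per line, the spread behind neighbouring ranks is unknown.

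**Figure D1:**
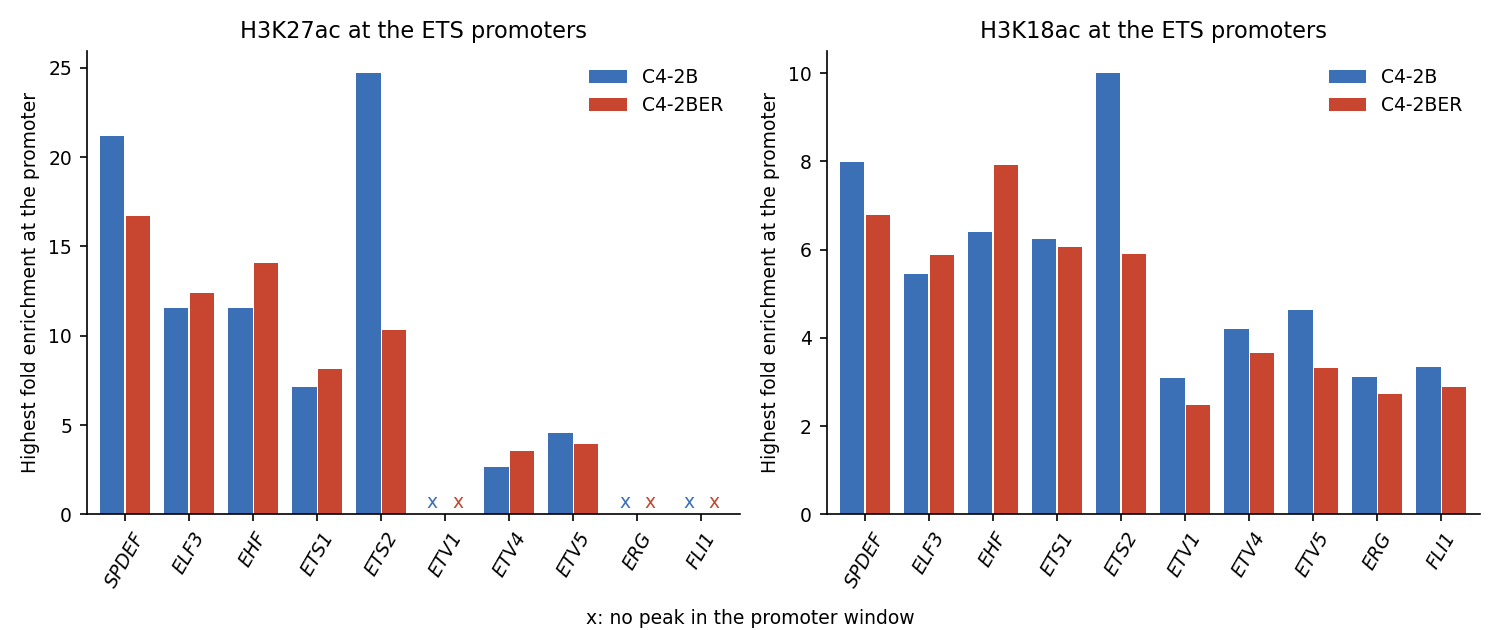
Highest fold enrichment (no unit, linear axis from 0) of an H3K27ac peak (left) or H3K18ac peak (right) at the promoter of each ETS gene, with 1 bar for C4-2B and 1 for C4-2BER. ETS2 is 24.7 in C4-2B and 10.3 in C4-2BER for H3K27ac, EHF is higher in C4-2BER for both marks, and ERG, FLI1 and ETV1 have bars for H3K18ac only.

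Of the 10 genes, 0 had an increased H3K27ac promoter in C4-2BER, against 3.49% of all protein-coding promoters. Increased means a peak in C4-2BER and none in C4-2B, or a C4-2BER to C4-2B ratio of 2 or more, and decreased means the converse. The 1 decreased gene was ETS2, against 8.27% of all. For H3K18ac, 0 were increased and 0 decreased, against 1.92% and 5.25%. Over all protein-coding genes with a promoter peak in both lines, the median log2 ratio of C4-2BER to C4-2B was -0.50 for H3K27ac and -0.33 for H3K18ac. The medians of the ETS genes were 0.10 over 7 genes and -0.21 over 10. For H3K27ac, 4 of the 7 ETS promoters were higher in C4-2BER, whereas 12.2% of all promoters were. Of the 4, ELF3 was not higher over its whole merged region before rescaling, as given below. For H3K18ac, 2 of 10 were higher, near the 15.1% of all. Whether this shift is one of scale, of peak width or of the promoters themselves was not tested. Ratios are also given after rescaling by a robust line through the regions that both lines share, which moved the median of all promoters to -0.11 for H3K27ac and -0.13 for H3K18ac. On that scale 5 of the 7 ETS promoters were higher in C4-2BER for H3K27ac, against 36.8% of all, and 3 of the 10 for H3K18ac, against 33.4%.

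EHF and ELF3, factors of the glandular epithelial differentiation program, had a higher strongest promoter peak in C4-2BER in both marks. However, H3K18ac at the EHF start printed above was 5.69 in C4-2B and 5.12 in C4-2BER, and the ELF3 peaks compared were of unlike width, as given below. At EHF (chr11:34621093-34663288, + strand), promoter H3K27ac was 11.6 in C4-2B and 14.1 in C4-2BER. For H3K18ac the values were 6.39 and 7.92, both from peaks at an internal start. The log2 ratios were 0.28 and 0.31, and 0.65 and 0.54 after rescaling. Among protein-coding promoters with a peak, EHF stood at percentile 25.5 in C4-2B and 63.2 in C4-2BER for H3K27ac, and at 42.1 and 86.1 for H3K18ac. At the canonical TSS alone, the H3K18ac window held a peak in C4-2BER (5.12) and none in C4-2B, whose peak in the same region (5.69) started farther into the gene.

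The EHF promoter sat in a single broad H3K27ac domain, chr11:34619104-34644982, in both lines. The C4-2B peak was 24318 bp wide and the C4-2BER peak 25879 bp, and each covered the 5′ part of the gene. H3K18ac was split there into 3 regions. The one over the canonical start, chr11:34619154-34625968, had a log2 ratio of -0.15 that became 0.04 after rescaling. The next, chr11:34627145-34633224, had 3.60 in C4-2B and 6.37 in C4-2BER (log2 ratio 0.82, rescaled 1.00), and the one after it, chr11:34634242-34644696, had 5.78 and 7.92. Around the gene, 13 of 23 H3K18ac regions were seen in C4-2BER alone and 2 in C4-2B alone. Of all H3K18ac regions in the genome, 26.2% were counted as increased and 23.5% as decreased. Of those 13, 8 lay upstream of the gene. Their fold enrichment ran from 1.83 to 3.13 with a median of 2.31, beside 2.55 over all H3K18ac peaks of C4-2BER. The strongest, chr11:34594795-34596974, lay at -25.2 kb from the TSS (minus is upstream) and had no H3K27ac peak over it.

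ELF3 (chr1:202007945-202017183, + strand) had a promoter H3K27ac fold enrichment of 11.6 in C4-2B and 12.4 in C4-2BER, and an H3K18ac value of 5.44 and 5.89. The log2 ratios of 0.10 and 0.11 became 0.45 and 0.31 after rescaling. These values come from peaks over unlike stretches. In C4-2BER each is the mean of 1 peak over the whole domain, and in C4-2B that of 1 among several peaks there. For H3K18ac, the region chr1:202005531-202026613 had 2 peaks in C4-2B and 1 in C4-2BER, with means of 6.32 and 5.89 (log2 ratio -0.10, rescaled 0.11). What differed was the shape of the domain. The region chr1:202004509-202024596 held 5 separate H3K27ac peaks in C4-2B and 1 peak of 19587 bp in C4-2BER, with means over the peaks of 12.8 and 12.4 (log2 ratio -0.05, rescaled 0.32). The strongest of the C4-2B peaks there, 22.4, lay just downstream of the gene.

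Downstream of ELF3, neighbouring H3K27ac regions had ratios of opposite sign, between peaks of unlike width. The region chr1:202028717-202036916, centred 22.2 kb from the TSS, had 11.05 in C4-2B and 5.77 in C4-2BER (log2 ratio -0.94, rescaled -0.69), and the C4-2BER value is a mean over 8200 bp against 1593 bp in C4-2B. The next one, chr1:202040198-202050237, had 5.41 and 9.55 (log2 ratio 0.82, and 1.04 after rescaling, which takes it past the ratio of 2). Farther downstream, chr1:202055622-202059098 had 11.8 and 8.49, and chr1:202064058-202065156 had a peak in C4-2B alone (2.59). The highest peak of the ELF3 window, 23.6 in C4-2B and 13.9 in C4-2BER, was the promoter of the neighbour RNPEP, an aminopeptidase gene, and not of ELF3. Between them, chr1:201999100-202002235 carried H3K27ac in C4-2BER only (2.56) and an H3K18ac region in C4-2BER only (2.26), and overlapped promoters of ELF3-AS1 and RNPEP.

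SPDEF, the prostate-derived ETS factor, had the longest H3K18ac coverage of the 10 loci in both lines, 80.8 and 78.8 kb, and the second highest mean H3K27ac fold enrichment in C4-2B (13.8) and the highest in C4-2BER (11.8). SPDEF (chr6:34537802-34556333, - strand) had a promoter H3K27ac fold enrichment of 21.2 in C4-2B and 16.7 in C4-2BER, a log2 ratio of -0.34 that became 0.12 after rescaling. For H3K18ac the values were 7.99 and 6.78, with log2 ratios of -0.24 and, rescaled, close to 0. The C4-2B peak of 25808 bp and the C4-2BER peak of 30410 bp spanned the whole gene, and the C4-2BER peak ended at 34562265, upstream of the end of the C4-2B peak at 34557346. C4-2B had separate peaks of 722 and 2594 bp upstream, the latter ending at 34563192, and all merged to 1 region, chr6:34531539-34563192, of 31654 bp. H3K18ac peaks merged to a region of 65765 bp over the same gene, the widest at the 10 loci, with means of 5.64 and 5.94. It joined 4 peaks of C4-2B and 6 of C4-2BER, the widest of 32127 and 44201 bp, and also overlapped a promoter of PACSIN1. In the neighbour ILRUN, at -39.6 kb from the TSS, H3K27ac was 7.04 and 6.00 at chr6:34591435-34600433 (log2 ratio -0.23, rescaled -0.03). At chr6:34601478-34603773, at -46.3 kb, it was 8.12 and 4.78 (log2 ratio -0.76, rescaled -0.58).

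**Figure D2:**
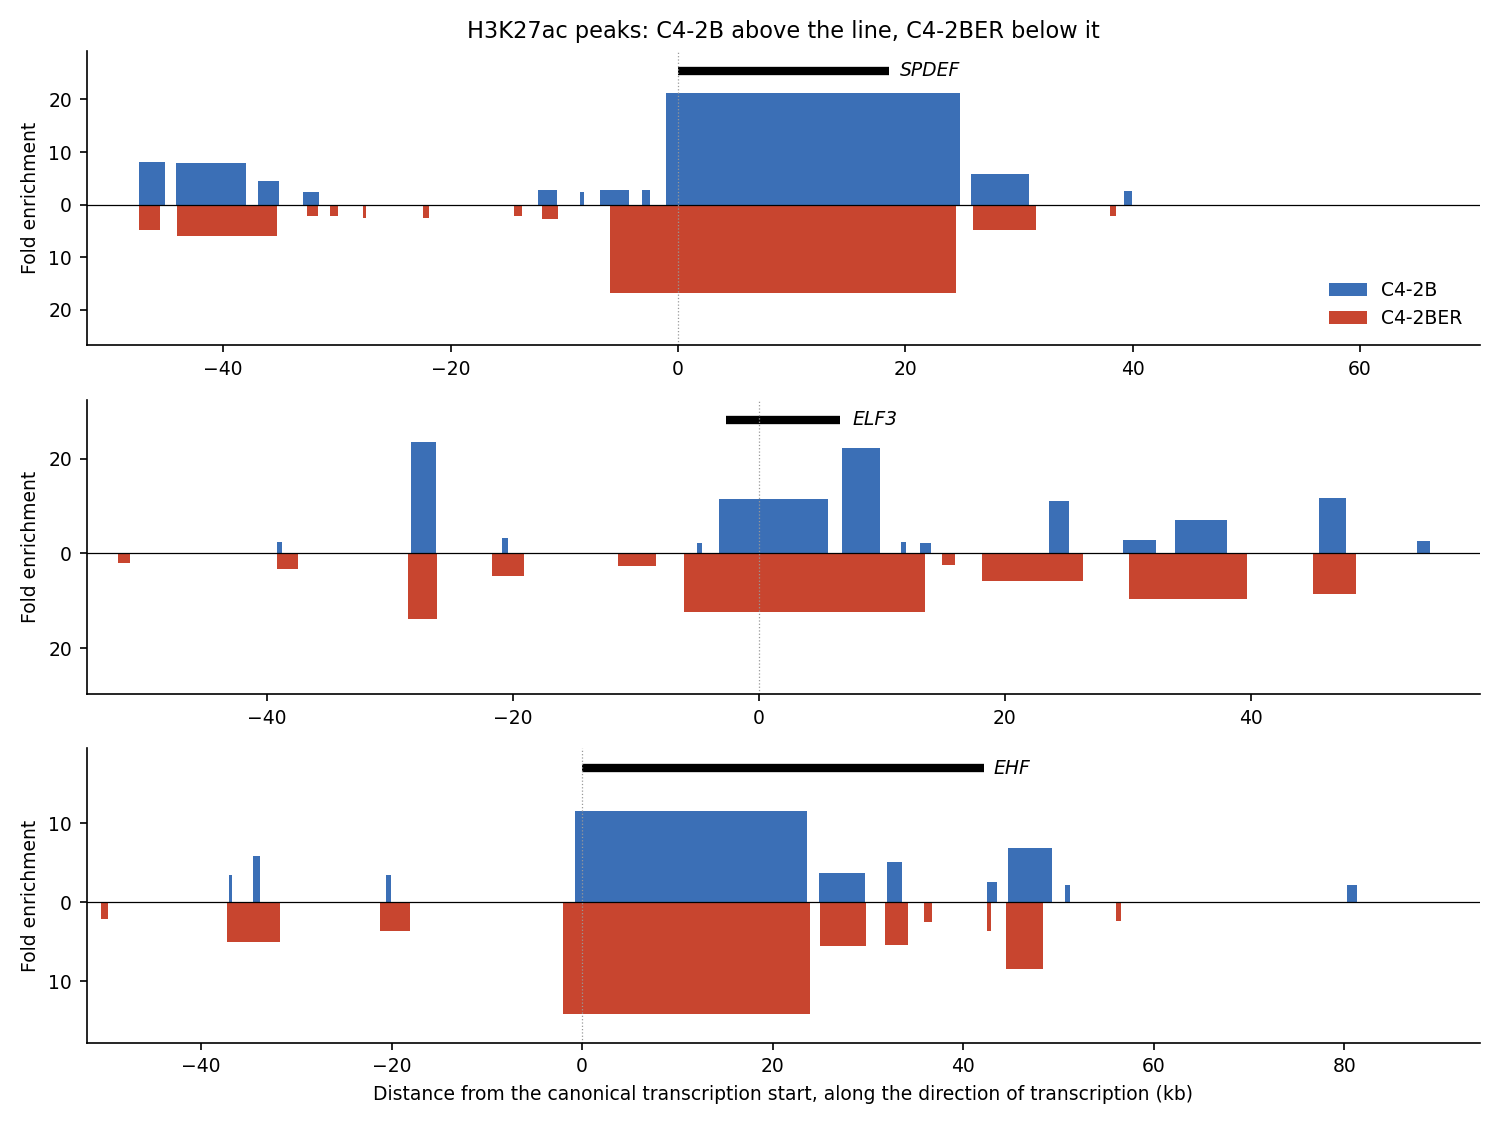
H3K27ac peaks around SPDEF, ELF3 and EHF by distance from the canonical TSS (kb, in the direction of transcription). Height is fold enrichment, C4-2B above the line and C4-2BER below it, and the black bar is the gene. Broad peaks cover the starts of all 3 genes in both lines, and at ELF3 the domain is 5 peaks in C4-2B and 1 peak of 19587 bp in C4-2BER.

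ETS2, a Ras-responsive factor, had the one ETS promoter counted as decreased. At ETS2 (chr21:38805183-38824955, + strand), promoter H3K27ac was 24.7 in C4-2B and 10.3 in C4-2BER, a log2 ratio of -1.26. For H3K18ac the values were 10.0 and 5.89, a log2 ratio of -0.76. Among all promoters with a peak, ETS2 stood at percentile 77.0 in C4-2B and 33.9 in C4-2BER for H3K27ac, and at 80.5 and 54.1 for H3K18ac. After rescaling, the log2 ratios were -0.84 and -0.52, and the H3K27ac promoter was no longer counted as decreased. The peak was 1852 bp wide in C4-2B and 2716 bp in C4-2BER, and both overlapped the window printed above. Its upstream region chr21:38787287-38788407, at -18.1 kb from the TSS, was also lower for H3K27ac (6.24 and 3.71), whereas chr21:38784666-38785099 was higher (3.06 and 4.54). An intragenic region, chr21:38819465-38820110 at exon 8 and intron 8, had H3K27ac in C4-2BER only (2.76), and H3K18ac there was 2.30 and 3.06.

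ETS1 carried acetylation at an internal start and not at its canonical one. ETS1 (chr11:128458761-128587558, - strand) had no peak of either mark within its canonical promoter window in either line. Its promoter value came from chr11:128521766-128523098, 65.1 kb downstream of the canonical TSS, at the TSS of shorter annotated transcripts. H3K27ac there was 7.11 in C4-2B and 8.12 in C4-2BER, and H3K18ac was 6.24 and 6.06 (log2 ratio -0.04, rescaled 0.17). Farther into the gene, in intron 3, chr11:128496401-128497806 had H3K27ac of 2.52 in C4-2B and 5.09 in C4-2BER. H3K18ac at the same place was 2.01 and 3.69 (log2 ratio 0.87, rescaled 0.98), and this ratio and that of the EHF region above were the highest of the shared H3K18ac regions at the 10 loci. Just past the gene end, chr11:128453252-128453932 had H3K27ac of 2.75 and 5.90. Another annotated ETS1 start, at chr11:128507129-128507792, had an H3K27ac peak in C4-2BER alone (3.14). Of the 5 H3K27ac regions, 3 were counted as increased and 1 as decreased, against 30.5% and 22.7% of all H3K27ac regions. That one, chr11:128624417-128624651, lay upstream and was 235 bp wide.

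In the PEA3 group, ETV4 and ETV5, which are widely read as outputs of FGF and ERK signalling, had more of their surroundings under acetylation peaks in C4-2BER, and ETV1 had less. For H3K18ac these directions turned when only peaks with a fold enrichment of at least 4 were kept: ETV4 and ETV5 were then counted as decreased and ETV1 as increased. For H3K27ac, ETV5 was counted as decreased under that filter too. In each of these loci, most H3K18ac coverage was under peaks below that value. ETV4 (chr17:43527844-43579620, - strand) had a low promoter in both lines, with H3K27ac of 2.65 and 3.55 and H3K18ac of 4.2 and 3.65. The regions of both marks there also overlapped an annotated promoter of DHX8. H3K27ac peaks covered 7.33 kb of its 152 kb window in C4-2B, with a mean fold enrichment of 6.00, and 19.4 kb in C4-2BER, with a mean of 4.75. H3K18ac peaks covered 35.0 kb and 70.8 kb, with means of 3.15 and 3.06.

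Of the 13 H3K27ac regions at ETV4, 6 were counted as increased, against 30.5% of all regions, and 1 as decreased, against 22.7%. The largest ratio of a shared region at the 10 loci was at chr17:43584940-43586543, at -39.40 kb from the canonical TSS (minus is upstream). It lay inside DHX8, an RNA helicase gene whose annotation runs past ETV4 on both sides, so that regions within ETV4 lie in both genes. This region had 2.33 in C4-2B and 5.22 in C4-2BER (log2 ratio 1.16, rescaled 1.21). The strongest region with a peak in C4-2BER only was chr17:43619745-43622216, at -74.6 kb (3.67). Within the gene, chr17:43553288-43557439 had 3.19 and 5.14. One increased H3K27ac region, chr17:43567014-43568117 (2.14), overlapped an H3K18ac region that was counted as decreased. A DHX8 promoter at the far end of the window held the highest peak in each line, with 13.3 and 12.5 (log2 ratio -0.09, rescaled 0.28).

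At ETV5 (chr3:186046314-186110318, - strand), promoter H3K27ac was 4.56 in C4-2B and 3.93 in C4-2BER, and H3K18ac was 4.63 and 3.32. The promoter was thus lower in C4-2BER in both marks, with log2 ratios of -0.22 and -0.48, or -0.12 and -0.33 after rescaling. Its H3K18ac coverage was nevertheless longer there, 12.4 kb in C4-2B and 30.5 kb in C4-2BER, with mean fold enrichments of 2.98 and 2.41. Of 30 H3K18ac regions, 15 were seen in C4-2BER alone and 5 in C4-2B alone, against 26.2% increased and 23.5% decreased of all regions. Upstream of ETV5 lay 8 of the 15, all within the neighbouring gene DGKG. The median fold enrichment of the 15 was 2.17, below that of the 5 (2.26). H3K27ac was sparse, with 3 regions, of which chr3:186097930-186098464 in intron 5 had a peak in C4-2BER only (3.00).

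ETV1 (chr7:13891229-13991425, - strand) had no H3K27ac promoter peak and low H3K18ac there, 3.09 in C4-2B and 2.48 in C4-2BER. Its H3K27ac was limited to 2 intragenic regions present in both lines. One, chr7:13898806-13901110 at exon 13 and intron 13, had 6.08 and 5.21. The other, chr7:13935706-13938287 at exon 8 and intron 7, had 3.81 and 3.06, and its C4-2BER peak was 346 bp wide against 2582 bp in C4-2B. H3K27ac coverage was 4.89 kb in C4-2B and 1.68 kb in C4-2BER, at similar means of 4.88 and 4.77. Of 20 H3K18ac regions, 13 were seen in C4-2B alone and 1 in C4-2BER alone, against 23.5% decreased and 26.2% increased of all regions. Of the 13, 5 lay in intron 9 and 3 in intron 6. The median fold enrichment of the 13 was 2.62, beside 2.74 over all H3K18ac peaks of C4-2B. Under the q-value filter given below, 0 H3K18ac regions at the ETS loci were counted as decreased and 16 as increased. None of the 13 was thus left as decreased under that filter. The strongest of the 13, chr7:13928334-13928952 in intron 9, had 3.56. Reads of a rearranged copy also map to this address, so both sources of signal cannot be told apart.

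**Figure D3:**
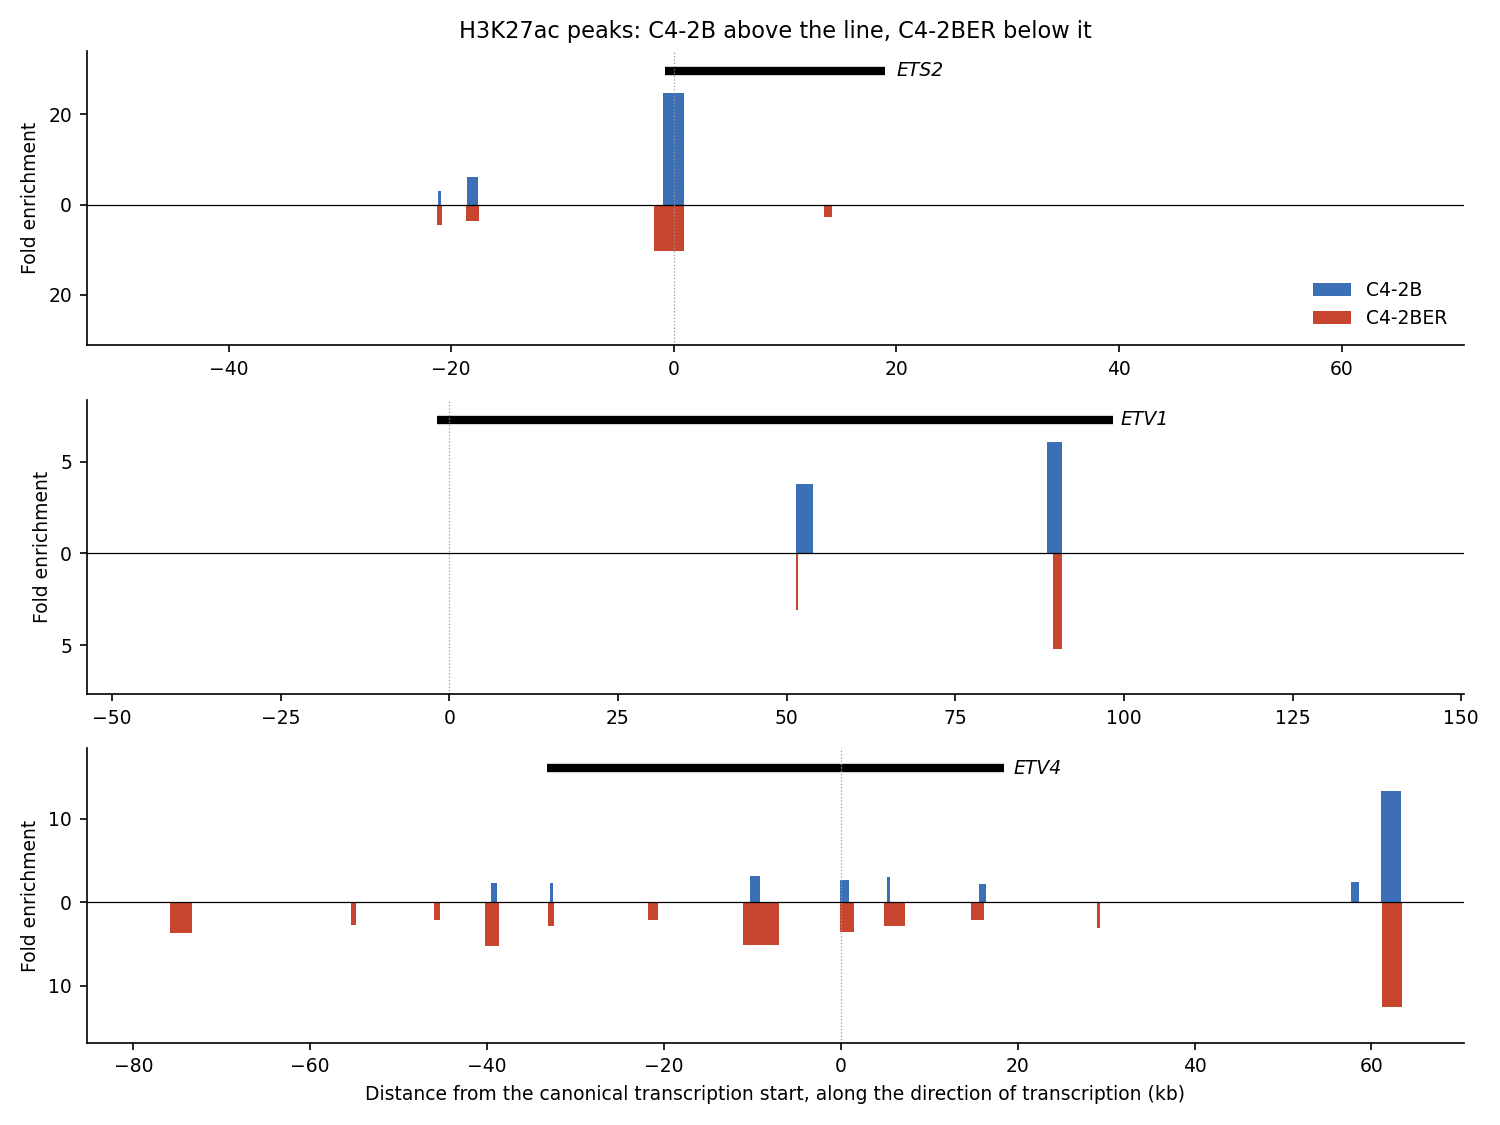
H3K27ac peaks around ETS2, ETV1 and ETV4 by distance from the canonical TSS (kb, in the direction of transcription), with fold enrichment of C4-2B above the line and of C4-2BER below it. The ETS2 promoter peak is lower in C4-2BER (24.7 and 10.3), both intragenic ETV1 peaks are narrower there, and ETV4 has wider and additional peaks upstream. The tallest peak in the ETV4 window is at a DHX8 promoter.

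ERG and FLI1 carried little H3K27ac in either line. ERG (chr21:38380027-38661780, - strand) is the longest of the 10 genes, yet H3K27ac peaks covered 1.32 kb of its 382 kb window in each line. All 3 of its H3K27ac regions were in 1 line only, 2 in C4-2BER and 1 in C4-2B, against 30.5% increased and 22.7% decreased of all regions. In C4-2BER they were chr21:38592297-38593312 (3.46) and chr21:38458116-38458423 (2.70), and in C4-2B it was chr21:38612723-38614042 (3.93). The first had H3K18ac in C4-2BER only as well, at 2.92, whereas the last had H3K18ac in both lines, at 4.25 and 4.08. The ERG promoter had H3K18ac of 3.11 and 2.72, at the upstream start printed above and not at the canonical one. The middle 300 bases of the strongest region of each line are shown, on the + strand of GRCh38, because each was called for H3K27ac in 1 line only within the same gene. They are chr21:38592655-38592954 and chr21:38613233-38613532.
ERG, C4-2BER only: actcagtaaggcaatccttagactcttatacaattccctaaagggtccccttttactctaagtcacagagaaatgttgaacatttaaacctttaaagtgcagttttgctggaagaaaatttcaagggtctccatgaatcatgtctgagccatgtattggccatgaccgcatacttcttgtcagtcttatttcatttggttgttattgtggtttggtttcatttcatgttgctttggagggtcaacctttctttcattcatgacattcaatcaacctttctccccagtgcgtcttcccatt
ERG, C4-2B only: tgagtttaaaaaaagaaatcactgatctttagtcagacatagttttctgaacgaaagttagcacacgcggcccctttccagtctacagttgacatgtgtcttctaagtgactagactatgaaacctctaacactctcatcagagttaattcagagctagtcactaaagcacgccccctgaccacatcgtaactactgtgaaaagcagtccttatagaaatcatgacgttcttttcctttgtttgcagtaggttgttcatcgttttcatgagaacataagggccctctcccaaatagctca
None of the 5 motifs matched in either sequence, so neither has capitals.

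FLI1 (chr11:128686535-128813267, + strand) had no region counted as increased or decreased for H3K27ac, against 30.5% and 22.7% of all regions. In the gene body alone, its H3K27ac covered length was counted as increased (log2 ratio 1.29, and 0.16 with 50 kb to each side). Its 3 H3K27ac regions were present in both lines, with log2 ratios from -0.34 to -0.03. The one in intron 2, chr11:128764530-128766823, had 3.01 and 2.91, and the strongest, chr11:128848017-128850149 in the neighbour KCNJ1, had 5.09 and 4.01. The H3K18ac promoter was 3.34 and 2.89. Of 31 H3K18ac regions, 22 were in both lines, 3 in C4-2BER alone and 6 in C4-2B alone. Of all 247646, 125361 were in both, and 26.2% were counted as increased and 23.5% as decreased.

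Over all 10 loci, peaks of both lines were merged into 69 H3K27ac and 201 H3K18ac regions, of 89877 and 247646 in the genome. For H3K27ac, 24 (34.8%) were counted as increased, against 30.5% of all regions, and 9 (13.0%) as decreased, against 22.7%. For H3K18ac, 57 (28.4%) were increased, against 26.2%, and 44 (21.9%) decreased, against 23.5%. The shares of increased regions were near those of the genome. Most counts came from regions seen in 1 line only: 21 of the 24 and 8 of the 9 for H3K27ac, and all of them for H3K18ac. None of these single-line regions reached a fold enrichment of 4. Regions in both lines had a median log2 ratio of -0.05 over 40 H3K27ac regions (-0.17 over all) and -0.08 over 100 H3K18ac regions (-0.12 over all). After rescaling both signs turned, to 0.10 and 0.06, beside -0.03 and -0.01 over all.

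**Figure D4:**
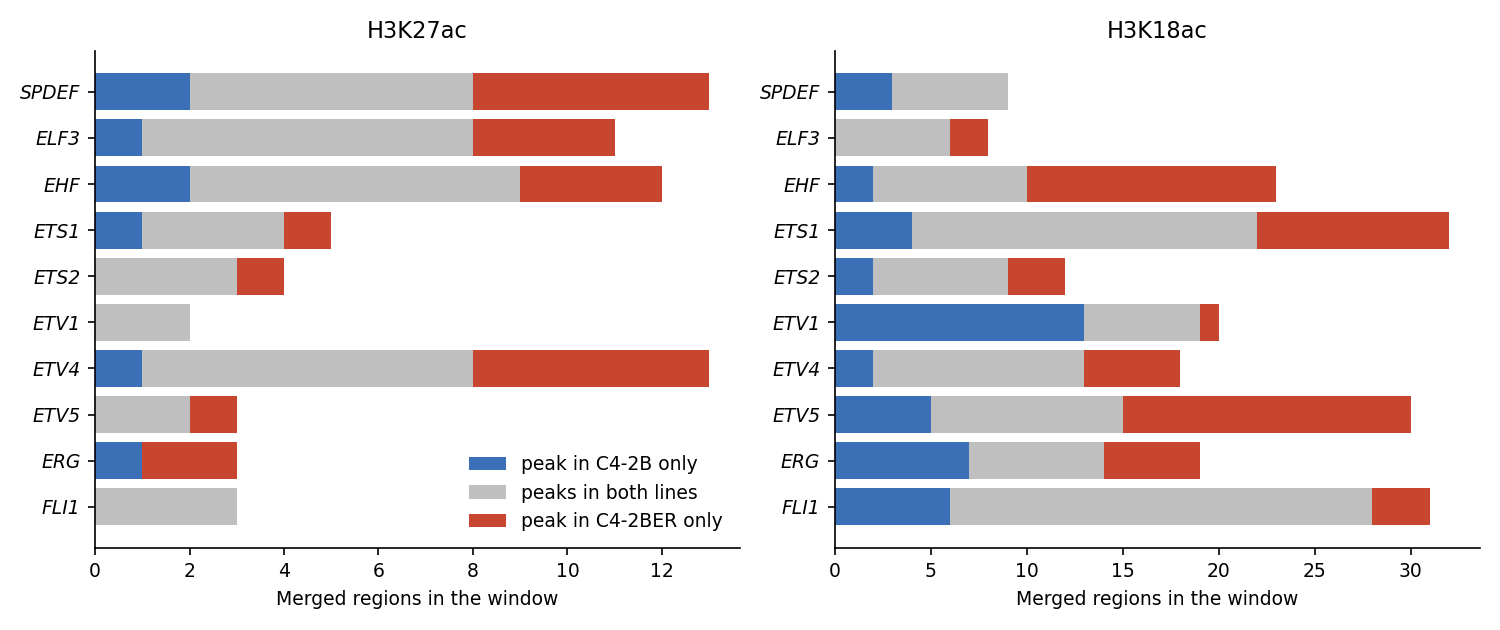
Number of merged regions (horizontal axis) in the window of each ETS gene for H3K27ac (left) and H3K18ac (right), split into peaks in C4-2B only, in both lines and in C4-2BER only. For H3K18ac, EHF holds 13 and ETV5 15 regions seen in C4-2BER alone, whereas ETV1 holds 13 seen in C4-2B alone.

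Counted by length under peaks, 1 locus was increased for H3K27ac (ETV4), against 12.3% of protein-coding loci, and 1 was decreased (ETV1), against 3.13%. For H3K18ac, 3 were increased (ETV4, ETV5 and EHF), against 8.58%, and 0 decreased, against 6.07%. None of the 3 was increased in gene bodies alone, EHF alone was with 100 kb to each side, and ETV4 and ETV5 were decreased with peaks of at least 4. When peaks under a -log10 q-value of 5 were dropped, ETV5 was no longer increased (log2 ratio 1.30, then 0.78) and ETS1 was (0.37, then 2.92). A locus was counted with a ratio of at least 2 in covered length. The median log2 ratio of covered length was 0.42 for H3K27ac and 0.37 for H3K18ac over the ETS genes, and 0.27 and 0.03 over all genes. SPDEF, ELF3 and EHF had 41.1%, 26.0% and 27.8% of their windows under H3K27ac peaks in C4-2B and 43.6%, 48.3% and 33.7% in C4-2BER, whereas the median locus had 6.16% and 7.89%. The other 7 ETS loci were at or below 4.83% in C4-2B. These lengths differed together with the q-value that the caller gave at a fixed enrichment: for peaks with a fold enrichment of 2.9 to 3.1, the median -log10 q-value was 3.65 in C4-2B and 5.22 in C4-2BER for H3K27ac, and 3.29 and 4.67 for H3K18ac. The part of this shift in the single-line peaks and the longer domains of C4-2BER was not tested.

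**Figure D5:**
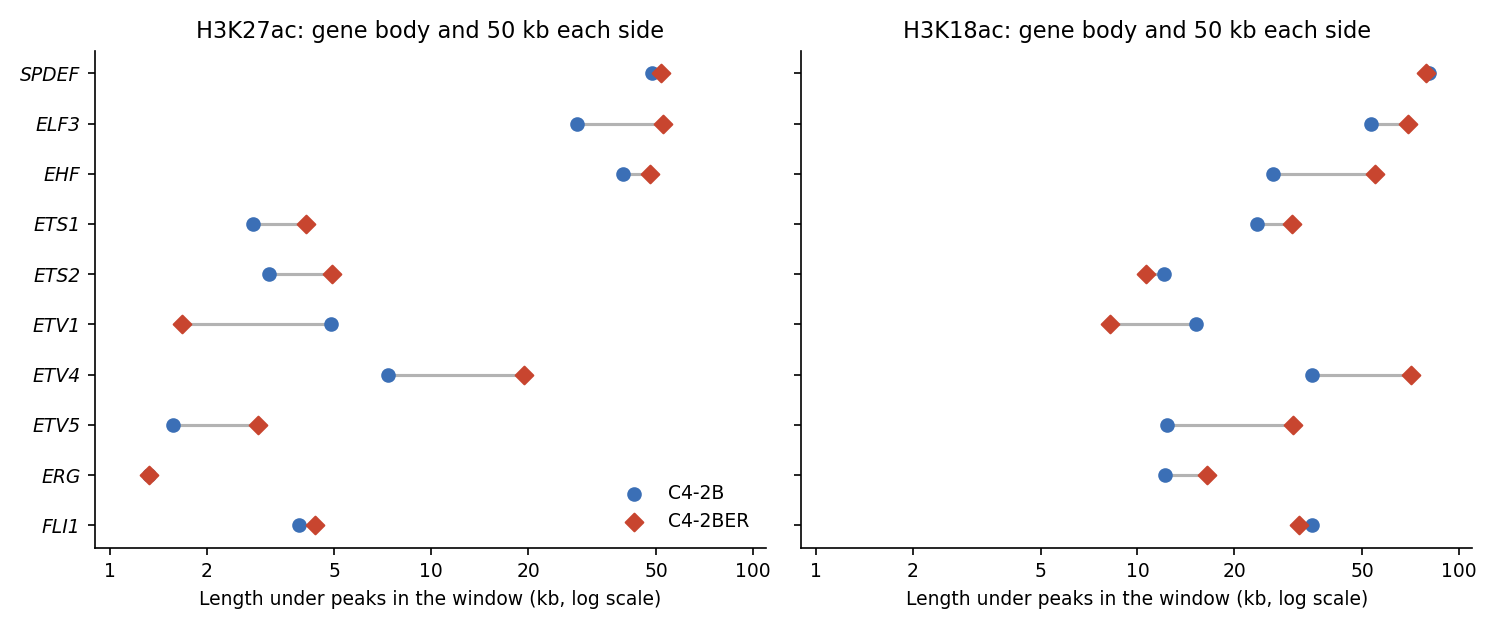
Length under peaks (kb, log axis) in the gene body and 50 kb to each side of each ETS gene, for H3K27ac (left) and H3K18ac (right), with circles for C4-2B and diamonds for C4-2BER. ETV4 runs from 7.33 to 19.4 kb for H3K27ac, ETV1 from 4.89 down to 1.68 kb, and the SPDEF symbols nearly coincide.

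Of these H3K27ac regions, 22 of the 24 increased and 7 of the 9 decreased ones lay over H3K18ac of some kind. No such share was counted over all H3K27ac regions, so these counts have no comparison and are not read as particular to these loci. Of the 24, 5 overlapped an increased H3K18ac region, at EHF, ELF3 and ERG, against 26.7% of all increased H3K27ac regions. Of the 9 decreased ones, 1, at EHF, overlapped a decreased H3K18ac region, against 22.1% of all decreased ones. In the middle 300 bases, the E-box was found in 10 of the 24 increased H3K27ac regions (16.7% of all increased regions) and in 1 of the 9 decreased ones (20.4%). Over all 69 it was in 16 (17.9% of all regions), and for H3K18ac it was in 10 of 57 increased (13.6%) and 8 of 44 decreased ones (18.6%). The ETS motif itself was in 1 of the 69 H3K27ac regions and 4 of the 201 H3K18ac regions, and in 0.597% and 0.390% of all regions. The GC box was in 10 of the 69 H3K27ac regions (18.02% of all), the AP-1 motif in 6 (5.14%) and the forkhead motif in 3 (4.76%).

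Other genes of the family and of its pathway were read from lists written for this comparison. Of 18 other ETS family genes, 15 had an H3K27ac promoter peak in C4-2B and 16 in C4-2BER. The one counted as increased was SPI1, a blood lineage factor (2.30 in C4-2BER, none in C4-2B), and 0 were decreased, against 3.49% and 8.27% of all promoters. ETV7, just below the ratio of 2, had 3.83 and 7.56 (rescaled log2 ratio 1.13, past it). The median log2 ratio of the list was -0.47, near the -0.50 of all promoters. For H3K18ac, 0 were increased and 1, SPIB, was decreased, with 2.60 in C4-2B and no peak in C4-2BER, against 1.92% and 5.25% of all. Counts of 1 among 18 genes are near these shares.

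Among 12 genes read as outputs of ERK signalling, all had promoter peaks of both marks in both lines. For H3K27ac, 0 were increased, against 3.49% of all promoters. The 1 decreased gene was PHLDA1 (21.7 and 8.09, log2 ratio -1.42, rescaled -1.05), a count near the 8.27% decreased of all promoters. DUSP6, the ERK phosphatase, had 21.5 and 18.7 (log2 ratio -0.20, rescaled 0.27), and SPRY4, a feedback inhibitor, had 4.72 and 6.60. SPRY4 was the 1 gene of the 12 that was higher in C4-2BER (3 after rescaling), where 12.2% of all promoters were (36.8% after rescaling). The median of the list was -0.62, beside -0.50 over all promoters. For H3K18ac, 0 were increased and 0 decreased, against 1.92% and 5.25% of all promoters. In C4-2BER 0 of the 12 were higher (3 after rescaling), where 15.1% of all were (33.4% after rescaling). The median was -0.46, beside -0.33 over all.

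Of 6 protease and invasion genes known as ETS targets, 2 were increased for H3K27ac, MMP1, a collagenase, and PLAU, the urokinase, against 3.49% of all promoters. Both had a weak H3K27ac peak in C4-2BER only (2.48 and 2.51). Their H3K18ac peaks were present in both lines and lower in C4-2BER, at 3.17 and 2.78 for MMP1 and 4.30 and 3.61 for PLAU. MMP3 and MMP9 had no H3K27ac promoter peak in either line, and for H3K18ac MMP9 was the 1 gene counted as decreased (2.44 in C4-2B only), against 5.25% of all.

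The 8 genes known as 5′ partners of ETS fusions had H3K27ac promoter peaks in both lines, and 0 were counted as increased or decreased, against 3.49% and 8.27% of all promoters. TMPRSS2, the usual partner of ERG, had 21.5 and 20.03 (log2 ratio -0.10, rescaled 0.38), and SLC45A3 had 12.1 and 6.66. For H3K18ac, ACSL3 was the 1 decreased gene (16.5 and 6.73, log2 ratio -1.29), against 5.25% of all promoters. MIPOL1, the host of the ETV1 rearrangement in LNCaP cells, had an H3K27ac promoter of 14.99 in C4-2B and 9.92 in C4-2BER, and H3K18ac of 5.81 and 4.61. Its log2 ratios, -0.60 and -0.33, were near the medians of all promoters.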

How the data were processed

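H3K27ac and H3K18ac ChIP-seq peaks of C4-2B and C4-2BER cells were analysed. Cells were fixed with DSG and formaldehyde. Per the methods, reads were aligned to GRCh38 with Bowtie2, blacklisted regions and reads of low mapping quality were filtered, and duplicates were removed with Picard. The submitters' processing notes name Trimmomatic 0.33 and Bowtie2 2.2.3, and the methods name another Bowtie2 version. The authors merged the libraries of each mark and line, called peaks with macs2, and deposited 1 broad peak list per mark and line. The deposited fold enrichment is a ratio to the background, averaged over the peak. The deposited -log10 q-value was used only as a filter and to compare the lists.

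Overlapping peaks of both lines were merged to regions, with a length-weighted mean fold enrichment for each line. Regions, promoters and loci were compared by peak presence and a ratio of 2, with no test. Shared regions were rescaled by a Huber line of M on A. Python 3.11.15, numpy 2.4.6, pandas 2.3.3 and statsmodels 0.14.6 were used, and scripts were tested on simulated data. The members, gene lists and motifs were chosen with earlier results of these data known. Regions to name were listed by a rule at each locus and for each mark. The rule took the strongest peak of each list, the strongest region of each line alone, and the shared region with the largest ratio in each direction. Not all of the regions so listed are named here. Of the gene lists, increased and decreased genes were named. Other regions and list genes were chosen after their values were seen. Some marker genes and 1 motif of these lists are not reported here.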

Additional observations from a re-analysis of the deposited data

How the results depend on the processing

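No paired analysis was possible because the libraries of each mark and line were merged before peaks were called, so no value belongs to 1 library, and leaving out a replicate was not possible either. Of 96 counts recomputed under other settings, 63 stayed within 1.5 times the value reported and 33 did not. Increased H3K27ac regions (24) numbered 8 in gene bodies alone, 41 with 100 kb to each side, 7 with peaks of fold enrichment 4 or more and 13 with a -log10 q-value of 5 or more. Decreased H3K27ac regions (9) numbered 2, 17, 3 and 4 under the same settings. Increased H3K18ac regions (57) numbered 22, 88, 2 and 16, and 89 where sharing needed at least 50% of a peak covered. Decreased H3K18ac regions (44) numbered 19, 72, 7 and 0. For H3K27ac promoters, the q-value filter gave 1 increased gene (ETV4), rescaling and peak presence alone left 0 decreased, and the fold filter gave 2 (ETS2 and ETV5). For H3K18ac promoters, the canonical TSS alone gave 1 increased gene (EHF), a ratio of 1.5 gave 1 decreased (ETS2), and the fold filter 2 (ETV4 and ETV5). Alternatives for covered length were chosen after seeing the data. For H3K27ac, increased loci (1) numbered 2 in gene bodies (FLI1 and ETV4) and 2 with 100 kb (ETV5 and ETV4). At a ratio of 1.5 they numbered 4 (ELF3, ETV5, ETV4 and ETS2), and under each filter 3 (ELF3, ETS1 and ETV4). The 1 decreased locus was ETV1 except under the fold filter, where it was ETV5. For H3K18ac, increased loci (3) numbered 0 in gene bodies and 1 with 100 kb, and decreased loci (0) numbered 1 at a ratio of 1.5 (ETV1) and 2 under the fold filter (ETV5 and ETV4), where the increased loci were ELF3 and ETV1. Under the q-value filter the 3 increased loci were EHF, ETS1 and ETV4. The ETV4 H3K18ac coverage ratio reversed under the fold filter, from a log2 ratio of 1.02 to -2.06, and ETV1 went from -0.88 to 0.13 under the q-value filter. A wider or narrower window holds more or fewer regions by construction, and for the other settings the cause was not tested. Depth limits these results in an unknown measure, since the lists hold no counts.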
